A study of Homo sapiens with 48 samples.

Results

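The Eph receptors with their ephrin ligands, the semaphorins with their neuropilin and plexin receptors, and the slits with their robo receptors were examined in PSN1 cells, an established line of pancreatic ductal adenocarcinoma (PDAC). Genes were taken by symbol: EPHA, EPHB, EFNA, EFNB, NRP, SLIT or ROBO followed by a number only, names that begin with SEMA and a digit, and names that begin with PLXNA, PLXNB, PLXNC or PLXND. This rule found 60 of the 20241 genes in the table, of which 47 were tested among 12471 genes that lay above 1 CPM in at least 3 libraries. CPM here stands for the reads of a gene scaled to the depth of its library and by a further factor per library. RNAseq was available for 9 PSN1 libraries, 3 per group, and the other 39 of the 48 samples were not analysed here. Parental cells were untreated PSN1 cells at day 0. TalaR-M cells were PSN1 cells made resistant to the PARP inhibitor Talazoparib by gradually rising doses and maintained in 50 nM Talazoparib, labelled at 4 months. TalaR-DF cells were resistant PSN1 cells returned to drug-free medium, labelled with no treatment and day 0. The paper describes 4 weeks without drug, after which PSN1 cells had regained nearly the Talazoparib sensitivity of parental cells. Below, resistant names both TalaR groups by their origin, and does not mean that TalaR-DF cells still withstood the drug. Both resistant groups share the selection in Talazoparib, and whether they stem from a single clone is not stated. Nothing in the labels says that replicates came from separate selections or cultures, so the p-values measure only the spread between these samples, which may be technical.

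Eph receptors are receptor tyrosine kinases that bind ephrins on neighbouring cells. Ephrin-A ligands are held by a lipid anchor, ephrin-B ligands cross the membrane, and both partners of a contact can signal. Secreted semaphorins bind neuropilins and signal through plexins, most membrane-bound semaphorins bind plexins directly, and slits are secreted ligands of the robo receptors. These cues were first known for steering growing axons. They also direct cell sorting, migration and vessel growth in other tissues, and slit and robo genes are among those recurrently mutated in pancreatic cancer.

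The genes with the largest changes had very different promoters. The windows of RefSeq (GRCh38.p14), from 250 bases before to 50 bases after the annotated start, are shown for 5 of them because these genes carry the main differences between the groups, with each CG dinucleotide in capitals. EPHA3 (chr3:89107371-89107670, plus strand) and EPHA7 (chr6:93419510-93419809, minus strand) encode Eph receptors. SEMA3E (chr7:83649090-83649389, minus strand) and SEMA5A (chr5:9546026-9546325, minus strand) encode semaphorins, and SLIT2 (chr4:20251655-20251954, plus strand) encodes a slit.
EPHA3: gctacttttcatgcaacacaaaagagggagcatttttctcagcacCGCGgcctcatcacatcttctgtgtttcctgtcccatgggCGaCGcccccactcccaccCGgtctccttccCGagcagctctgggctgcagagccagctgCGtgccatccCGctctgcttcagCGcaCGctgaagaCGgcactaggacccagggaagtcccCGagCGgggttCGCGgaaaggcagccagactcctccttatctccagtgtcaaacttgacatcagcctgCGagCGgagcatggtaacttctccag
EPHA7: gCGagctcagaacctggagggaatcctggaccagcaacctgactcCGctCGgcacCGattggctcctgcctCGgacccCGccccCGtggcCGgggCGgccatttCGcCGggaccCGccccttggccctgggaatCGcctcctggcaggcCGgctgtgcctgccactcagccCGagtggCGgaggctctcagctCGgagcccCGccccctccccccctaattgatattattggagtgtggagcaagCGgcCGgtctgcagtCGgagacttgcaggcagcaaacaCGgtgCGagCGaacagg
SEMA3E: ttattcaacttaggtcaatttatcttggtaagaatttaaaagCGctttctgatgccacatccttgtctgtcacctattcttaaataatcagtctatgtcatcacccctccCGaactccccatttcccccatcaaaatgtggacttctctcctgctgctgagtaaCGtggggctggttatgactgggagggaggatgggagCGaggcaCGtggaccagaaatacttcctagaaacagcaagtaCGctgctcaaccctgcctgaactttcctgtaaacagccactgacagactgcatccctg
SEMA5A: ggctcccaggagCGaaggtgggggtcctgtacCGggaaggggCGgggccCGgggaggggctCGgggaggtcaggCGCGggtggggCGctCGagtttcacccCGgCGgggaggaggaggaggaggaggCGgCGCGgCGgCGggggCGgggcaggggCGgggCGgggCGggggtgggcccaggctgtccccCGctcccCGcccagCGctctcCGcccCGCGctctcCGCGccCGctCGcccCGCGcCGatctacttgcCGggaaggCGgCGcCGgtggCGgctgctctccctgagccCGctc
SLIT2: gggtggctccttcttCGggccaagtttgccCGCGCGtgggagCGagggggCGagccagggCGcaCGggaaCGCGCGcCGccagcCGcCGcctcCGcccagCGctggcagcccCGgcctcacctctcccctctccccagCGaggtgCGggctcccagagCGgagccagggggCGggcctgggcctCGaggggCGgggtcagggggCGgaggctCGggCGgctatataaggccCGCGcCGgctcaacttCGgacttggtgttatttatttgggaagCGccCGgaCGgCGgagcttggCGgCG
The window of SEMA3E held 6 CG dinucleotides at a GC content of 47.3%, and 37.5% of all 27305 windows held no more than that. EPHA3 held 17 and EPHA7 held 24, against a median of 14 over all windows and of 24 over the tested members. SLIT2 held 36 and SEMA5A held 39, and 92.6% of all windows held no more CG than that of SEMA5A. CG reads the same on both strands, and 95.8% of all windows held at least 1. The E-box bound by SNAI family repressors (CAGGTG, or CACCTG on the other strand) was in none of these 5 windows. It was in 7 of the 41 tested members with a window (17.1%) and in 20.6% of all windows. EPHA10 was not among the 54 members matched to the table.

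Depth was similar in 8 of the 9 libraries. Reads recovered on genes above 1 CPM numbered 8387755 in TalaR-M replicate 2 and between 12213605 and 14973847 in the others, and a value of 0 stands for at most 1 CPM, which is 6.97 reads in that library and up to 14.54 reads elsewhere. TalaR-M replicate 2 stood apart. Its correlation with the other TalaR-M libraries across genes was 0.78, against at least 0.99 within the parental and the TalaR-DF group, and 16 of the 47 tested members differed by more than 2-fold from the mean of its fellow replicates. The deviation went with transcript length, with a median (log2) of -0.06 for the 23 shorter members and -0.54 for the 24 longer ones. What set this library apart was not tested, and values that it moved across a threshold or by more than 1.5-fold are given with and without it. Of 7 pancreatic carcinoma markers, 5 were above 1 CPM in every library, while CLDN18 was at 0 throughout and MSLN was at 0 in parental cells. Of 4 neuronal markers, RBFOX3, SYT1 and STMN2 were at 0 in all 9 libraries, and SNAP25 was above 1 CPM in each. Summed marker levels also moved between groups: those of the pancreatic list were 1078 to 1132 CPM in parental, 1702 to 5773 in TalaR-M and 950 to 1085 in TalaR-DF cells, and those of 6 fibroblast markers were 1724 to 1798, 1212 to 3378 and 856 to 967. For 5 blood markers they were 11.1 to 14.7, 4.1 to 7.1 and 1.2 to 2.6, and for the neuronal list 19.3 to 20.3, 11.9 to 19.0 and 10.6 to 12.1. For the pancreatic and fibroblast lists the range within TalaR-M cells was far wider than within the other groups. These ranges include TalaR-M replicate 2 and were not computed without it. The part of these markers in the results below was not tested.

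**Figure D1:**
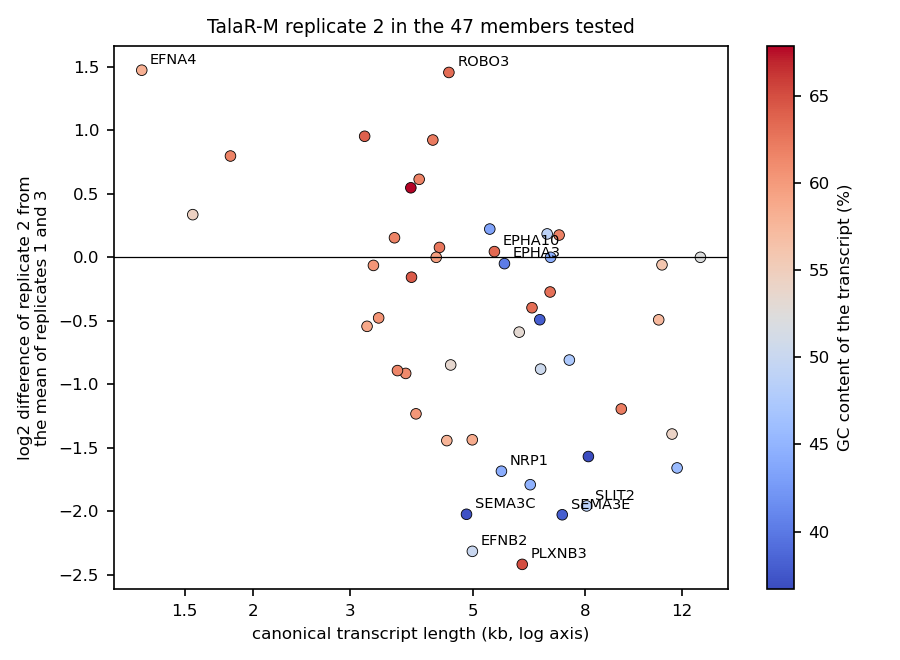
Log2 difference between TalaR-M replicate 2 and the average of its 2 fellow replicates (vertical axis) against the length of the canonical transcript (kb, log axis) for the 47 tested members, 1 point per gene, coloured by GC content. PLXNB3, EFNB2, SEMA3E, SEMA3C and SLIT2 lie lowest, while EFNA4 and ROBO3 lie highest.

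A gene was called at a Benjamini-Hochberg adjusted p under 0.05 (limma) and a change of at least 2-fold. In TalaR-M against parental cells 18 of 47 members were called (38.3%), against 13.3% of all genes tested. Of these, 6 lay above parental cells (12.8%, against 5.53% of all genes) and 12 below (25.5%, against 7.72%). In TalaR-DF against parental cells 15 members were called (31.9%, against 9.73% of all genes), 4 of them higher (2.25% of all genes) and 11 lower (7.49%). Between TalaR-M and TalaR-DF cells 7 members were called (14.9%, against 6.93%), 6 upward in TalaR-M cells (5.29% of all genes) and 1 downward (1.64%). Both resistant groups were compared with the same parental libraries, so the first 2 comparisons are not independent. The spread of each gene was estimated over all groups together. TalaR-M replicate 2 therefore also enters the SE and p of TalaR-DF against parental cells. Calls given below as lost when 1 other library was left out come from fits that kept TalaR-M replicate 2. The tested members EPHA10, SEMA5A, PLXNA4, ROBO1 and ROBO4 were above 1 CPM in a single group only, and had to differ in order to pass the filter on low values. Values listed at 0 also hide any spread under 1 CPM. The SEs and p-values of these members, and of others with groups at or near 0 such as SEMA6A, may therefore be too small.

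Without TalaR-M replicate 2 21 members were called in TalaR-M against parental cells (13.9% of all genes), 8 upward (6.78%) and 13 downward (7.07%). In TalaR-DF against parental cells there were 16 (11.4% of all genes), 4 higher (2.73%) and 12 lower (8.63%), and between TalaR-M and TalaR-DF cells 11 (8.36%), 10 upward in TalaR-M cells (6.96%) and 1 downward (1.4%). The median log2 fold change of the tested members was -0.51 in TalaR-M against parental cells, where that of all genes was -0.09, and -0.65 in TalaR-DF against parental cells, where that of all genes was 0.01. In TalaR-M against TalaR-DF cells it was 0.06 beside -0.09. Rescaling by the median ratio moved the median of all genes to 0.01, -0.01 and 0.03 and that of the members to -0.40, -0.69 and 0.18.

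**Figure D2:**
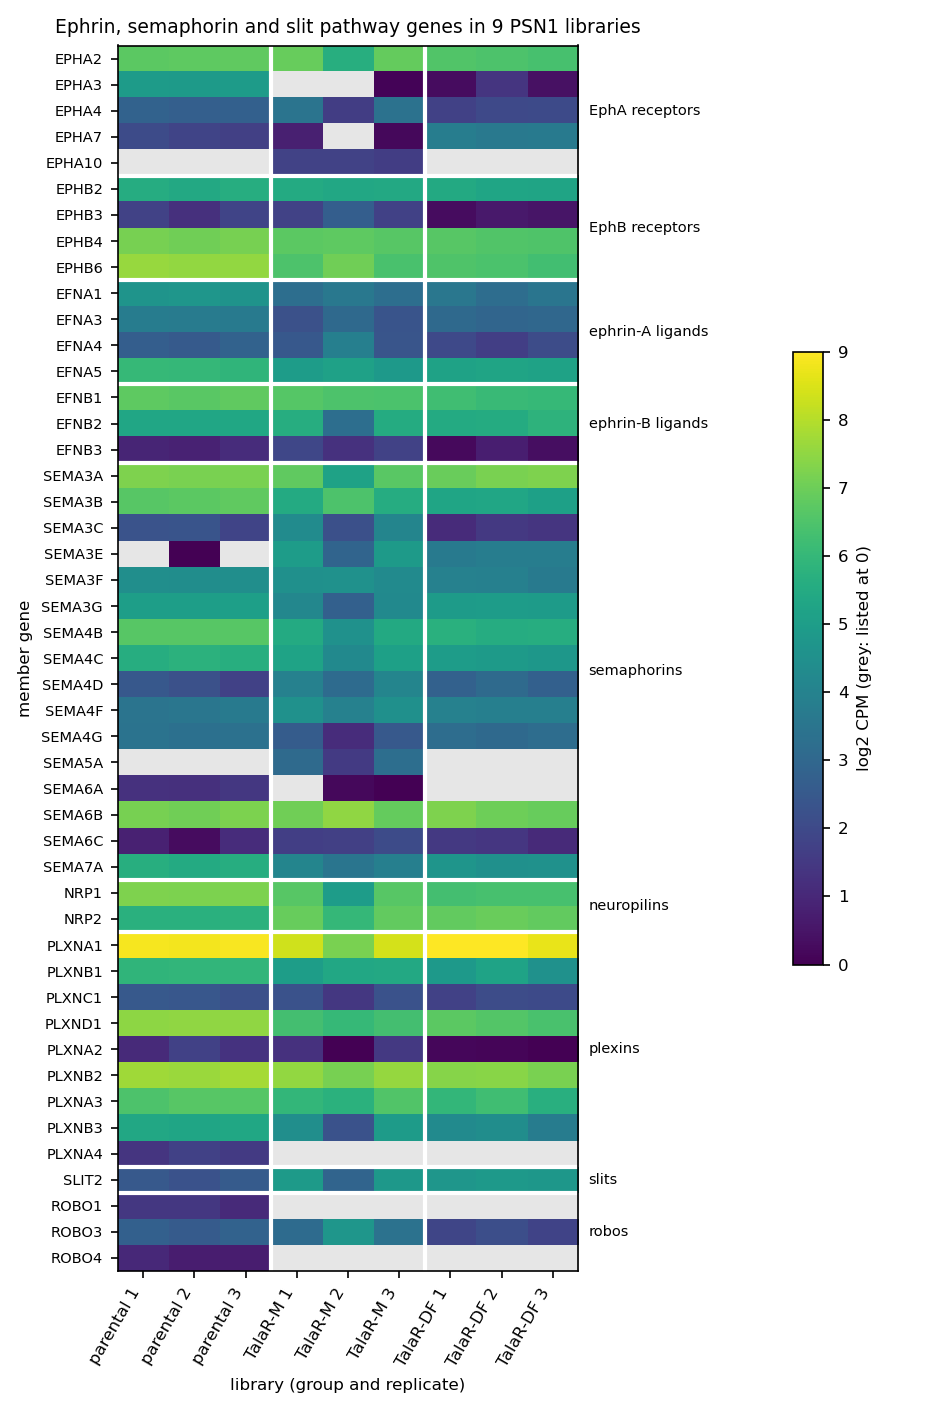
Log2 CPM (colour) of the 47 tested members (rows, by role) in the 9 PSN1 libraries (columns, by group and replicate), with values listed at 0 in grey. EPHA10 and SEMA5A are coloured in TalaR-M cells only, PLXNA4, ROBO1 and ROBO4 in parental cells only, and SEMA3E is near 0 in parental cells and between 2.91 and 4.97 in both resistant groups.

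The Eph receptors held the largest fall of any member. EPHA3 (chromosome 3 from 89107621 to 89482134, hg38, GENCODE 44) was at 4.93, 4.91 and 4.94 log2 CPM in the parental libraries, at 0, 0 and 0.10 in TalaR-M replicates 1 to 3, and at 0.31, 1.39 and 0.42 in TalaR-DF replicates 1 to 3. The parental libraries lay far above all 6 resistant libraries, with 405 to 446 reads against at most 35. EPHA3 fell by 4.89 (log2) in TalaR-M cells (SE 0.26, adjusted p = 5.43e-06) and by 4.22 in TalaR-DF cells (SE 0.26, adjusted p = 1.76e-05). Since 2 of the TalaR-M libraries were at 0, the first of these values is limited by the floor of 1 CPM. The resistant groups differed from each other by -0.67 (SE 0.26, adjusted p = 0.136), which was not called. In bulk RNA, fewer cells that express a gene and less RNA per cell cannot be told apart.

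EPHA7 (chromosome 6 from 93240020 to 93419687), another ephrin-A receptor, separated the resistant groups in opposite directions from parental cells. It was at 2.06, 1.85 and 1.70 log2 CPM in parental cells, 0.79, 0 and 0.19 in TalaR-M cells, and 3.83, 3.63 and 3.69 in TalaR-DF cells. The 3 groups did not overlap. EPHA7 fell by 1.54 in TalaR-M cells (SE 0.22, adjusted p = 0.0014) and rose by 1.85 in TalaR-DF cells (SE 0.22, adjusted p = 0.000625). Between TalaR-M and TalaR-DF cells the difference was -3.39 (SE 0.22, adjusted p = 5.54e-05), or 10.5-fold, and it was -3.23 without TalaR-M replicate 2. It was the only member called lower in TalaR-M than in TalaR-DF cells.

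EPHA10 (chromosome 1 from 37713880 to 37765133), whose kinase domain lacks activity, was listed at 0 in every parental and every TalaR-DF library and was at 1.79, 1.76 and 1.65 log2 CPM in TalaR-M cells. These values rest on 53, 25 and 43 reads. The level of EPHA10 in TalaR-M cells was at least 3.32-fold higher than that in parental cells (log2 fold change 1.73, SE 0.10, adjusted p = 6.49e-06), with the same fold against TalaR-DF cells (adjusted p = 3.45e-05). The groups listed at 0 add no spread to this SE. TalaR-M replicate 2 lay between its fellow replicates here. EPHA4, which binds ephrins of both classes, was at 3.47, 1.64 and 3.40 in TalaR-M cells and between 1.75 and 2.01 in TalaR-DF cells. The log2 difference of EPHA4 between these groups was 0.92 (SE 0.44, adjusted p = 0.198). It was called in 3 alternative fits, among them the one without TalaR-M replicate 2, at 1.51. EPHA2, the most abundant EphA receptor, ranged from 6.73 to 6.79 in parental cells and from 6.38 to 6.56 in TalaR-DF cells, and was not called. In TalaR-M cells EPHA2 was at 6.92, 5.66 and 6.86, a change from parental cells of -0.29 with replicate 2 and 0.12 without it.

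Among EphB receptors, EPHB3 separated TalaR-DF cells. It was at 1.77, 1.25 and 1.83 log2 CPM in parental cells, 1.79, 2.69 and 1.74 in TalaR-M cells, and 0.31, 0.61 and 0.50 in TalaR-DF cells, below all other libraries. EPHB3 was 1.60 higher in TalaR-M than in TalaR-DF cells (SE 0.28, adjusted p = 0.00837), and 1.29 without TalaR-M replicate 2. It was 1.14 lower in TalaR-DF than in parental cells (SE 0.28, adjusted p = 0.0237), a call lost without parental replicate 1 or 3 or without any 1 of the TalaR-DF libraries, at an adjusted p of up to 0.0953. Without TalaR-M replicate 2 the adjusted p of this fall was 8.92e-05. EPHB6, which has an inactive kinase domain and led the Eph receptors of parental cells at 47.3 CPM per kb of transcript, was at 7.62, 7.54 and 7.53 in parental cells, 6.47, 7.06 and 6.43 in TalaR-M cells and 6.54, 6.45 and 6.27 in TalaR-DF cells. EPHB6 fell by 1.14 in TalaR-DF cells (SE 0.18, adjusted p = 0.00339), short of 2-fold once values were corrected for transcript length and GC content. In TalaR-M cells it changed by -0.91 (SE 0.18, adjusted p = 0.00862), and by -1.11 without replicate 2, where it was called. EPHB4, the main receptor of EFNB2, and EPHB2 were not called in any comparison. EPHA1, EPHA5, EPHA6, EPHA8 and EPHB1 were at 0 in all 9 libraries.

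The ephrin-A ligands were lower in the resistant cells where they were called. EFNA1, the ligand of EPHA2, was at 4.65, 4.73 and 4.63 log2 CPM in parental cells, 3.24, 3.59 and 3.26 in TalaR-M cells and 3.56, 3.21 and 3.49 in TalaR-DF cells. Every parental library lay above every resistant one. EFNA1 fell by 1.31 in TalaR-M cells (SE 0.16, adjusted p = 0.000723) and by 1.25 in TalaR-DF cells (SE 0.16, adjusted p = 0.00113), and the resistant groups differed by -0.06. EFNA3 was at 3.80, 3.76 and 3.68 in parental cells and at 2.22, 3.08 and 2.34 in TalaR-M cells, a fall of 1.20 (SE 0.23, adjusted p = 0.00615), or 1.46 without TalaR-M replicate 2. Reads of EFNA3 and EFNA4 are shared with the readthrough gene EFNA4-EFNA3, so their split is uncertain. EFNA5, a ligand of EPHA3, was at 6.02, 5.99 and 5.89 in parental cells, 4.98, 5.14 and 4.86 in TalaR-M cells, and 5.19, 5.27 and 5.18 in TalaR-DF cells. Its change of -0.97 in TalaR-M cells (SE 0.13, adjusted p = 0.000906) fell just short of 2-fold, and EFNA5 was called at -1.05 without TalaR-M replicate 2 and at -1.01 without parental replicate 3.

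Of the ephrin-B ligands, EFNB3 was called between the resistant groups. It was at 1.91, 1.30 and 1.77 log2 CPM in TalaR-M cells and 0.23, 0.74 and 0.33 in TalaR-DF cells, with parental cells between them at 0.93, 0.85 and 1.14. EFNB3 was 1.23 higher in TalaR-M than in TalaR-DF cells (SE 0.21, adjusted p = 0.00697), on 15 to 58 reads, and this call was lost with a pseudocount of 1 CPM. EFNB1, the most abundant ephrin per kb of transcript, ranged from 6.04 to 6.81 over the 9 libraries and was not called. EFNB2 was at 3.27 in TalaR-M replicate 2 and between 5.32 and 5.81 in the other 8 libraries, so its change in TalaR-M cells was -0.52 (adjusted p = 0.504) with that library and 0.25 without it. EFNA2 was at 0 in all 9 libraries.

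**Figure D3:**
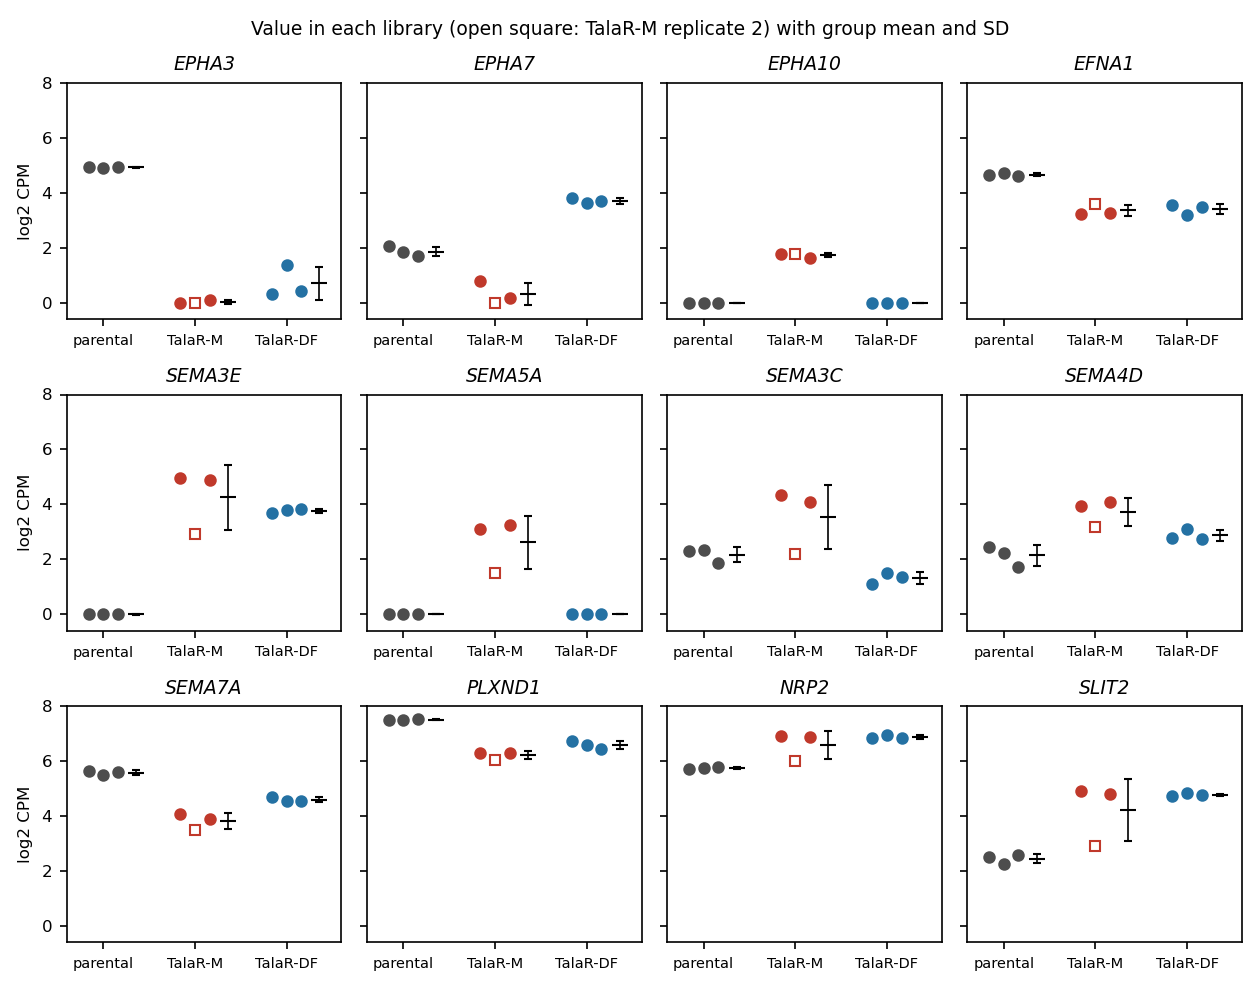
Log2 CPM (vertical axis) of 12 members in each library, by group, with the mean and SD of 3 libraries beside the points and TalaR-M replicate 2 as an open square. EPHA3 and SEMA3E move in opposite directions in both resistant groups, EPHA10 and SEMA5A are above 0 in TalaR-M cells only, and replicate 2 lies about 2 below its group for SEMA3E, SEMA3C and SLIT2.

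The semaphorins moved in both directions, and the secreted SEMA3E had the largest rise of any member. SEMA3E (chromosome 7 from 83363238 to 83649139), which binds PLXND1 without a neuropilin, was at 0, 0.01 and 0 log2 CPM in parental cells. It reached 4.97, 2.91 and 4.90 in TalaR-M cells and 3.68, 3.80 and 3.83 in TalaR-DF cells, on 56 to 491 reads. No resistant library came near a parental one. Against parental cells SEMA3E was 4.25 higher in TalaR-M cells (SE 0.49, adjusted p = 0.000448), and 4.93 without TalaR-M replicate 2. In TalaR-DF cells it was 3.77 higher than in parental cells (SE 0.49, adjusted p = 0.00109), which is 13.6-fold against a parental level at the floor. Between the resistant groups the difference was 0.49 (SE 0.49, adjusted p = 0.488), and 1.16 without TalaR-M replicate 2, where it was called.

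SEMA5A (chromosome 5 from 9035033 to 9546075), a membrane semaphorin with thrombospondin repeats, was listed at 0 in all parental and TalaR-DF libraries. In TalaR-M cells it was at 3.10, 1.52 and 3.24 log2 CPM, on 134, 21 and 132 reads. This level of SEMA5A was at least 6.15-fold higher than that of parental cells (log2 fold change 2.62, SE 0.40, adjusted p = 0.00215) and that of TalaR-DF cells (adjusted p = 0.00447), and at least 9.02-fold higher without replicate 2. Several antisense RNAs, among them SEMA5A-AS1, overlap the gene, and the sources used here do not say whether reads were counted by strand.

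SEMA3C, a secreted ligand of neuropilins, was at 2.31, 2.33 and 1.86 log2 CPM in parental cells, 4.34, 2.20 and 4.09 in TalaR-M cells and 1.10, 1.5 and 1.38 in TalaR-DF cells. TalaR-M replicate 2 lay within the parental range and the other TalaR-M libraries above it. SEMA3C was 2.22 higher in TalaR-M than in TalaR-DF cells (SE 0.51, adjusted p = 0.0264), a call that was lost when any 1 library other than TalaR-M replicate 2 was left out, at an adjusted p of up to 0.102. Without TalaR-M replicate 2 this difference was 2.89, and SEMA3C was also called against parental cells, at 2.05 in place of 1.38 (SE 0.51, adjusted p = 0.0865). SEMA4D, the membrane ligand of PLXNB1, was at 2.46, 2.25 and 1.74 in parental cells, 3.94, 3.16 and 4.08 in TalaR-M cells and 2.80, 3.11 and 2.75 in TalaR-DF cells. Its values in TalaR-M cells lay above all others. SEMA4D rose by 1.58 in TalaR-M cells (SE 0.29, adjusted p = 0.00526), or 1.86 without replicate 2. It exceeded TalaR-DF cells by 0.84 (adjusted p = 0.0994), a difference called in 2 alternative fits, among them the one without that library, at 1.13. SEMA6C, a membrane semaphorin at low level, was at 0.83, 0.29 and 1.14 in parental cells and 1.67, 1.70 and 2.05 in TalaR-M cells, a rise of 1.06 (SE 0.23, adjusted p = 0.0133). The rise of SEMA6C fell short of 2-fold without parental replicate 2, at 0.83, or without TalaR-M replicate 3, at 0.94, and the call was also lost with a pseudocount of 1 CPM.

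The semaphorins that fell spanned lipid-anchored, membrane-bound and secreted members. SEMA7A, a lipid-anchored semaphorin that binds PLXNC1 and integrins, was at 5.64, 5.49 and 5.60 log2 CPM in parental cells, 4.08, 3.50 and 3.88 in TalaR-M cells and 4.70, 4.53 and 4.56 in TalaR-DF cells. The 3 groups did not overlap, with TalaR-DF cells in between. SEMA7A fell by 1.76 in TalaR-M cells (SE 0.17, adjusted p = 0.000169). In TalaR-DF cells its change of -0.98 (SE 0.17, adjusted p = 0.00499) was just short of 2-fold, and past it without parental replicate 2, at -1.03, or without TalaR-DF replicate 1, at -1.04. SEMA4B, a membrane semaphorin, was at 6.65, 6.67 and 6.66 in parental cells, 5.51, 4.57 and 5.45 in TalaR-M cells, and 5.70, 5.58 and 5.61 in TalaR-DF cells. It fell by 1.48 in TalaR-M cells (SE 0.24, adjusted p = 0.00286), or 1.18 without replicate 2. In TalaR-DF cells SEMA4B fell by 1.02 (SE 0.24, adjusted p = 0.0193), and this call was lost when any 1 parental or TalaR-DF library was left out, at an adjusted p of up to 0.0725. Those fits kept TalaR-M replicate 2, and without that library the SE was 0.06 (adjusted p = 3.41e-08).

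SEMA3B, a secreted semaphorin known as a tumour suppressor in lung cancer, was at 6.67, 6.73 and 6.79 log2 CPM in parental cells, 5.51, 6.50 and 5.58 in TalaR-M cells and 5.30, 5.34 and 5.12 in TalaR-DF cells. SEMA3B fell by 1.48 in TalaR-DF cells (SE 0.25, adjusted p = 0.00447). In TalaR-M cells it changed by -0.86 (SE 0.25, adjusted p = 0.04), and by -1.18 without replicate 2, where it was called. SEMA6A, a membrane ligand of PLXNA2 and PLXNA4, was at 1.30, 1.25 and 1.45 in parental cells, 0, 0.18 and 0.00 in TalaR-M cells, and 0 in every TalaR-DF library. It was at least 2.51-fold lower in TalaR-DF than in parental cells (adjusted p = 7.95e-05) and fell by 1.27 (log2) in TalaR-M cells (SE 0.11, adjusted p = 8.23e-05), on 32 to 35 reads in parental libraries. The latter call was lost after correction for length and GC content, and SEMA6A is overlapped by the antisense gene SEMA6A-AS1.

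The falls of SEMA3G and SEMA4G in TalaR-M cells passed 2-fold only with TalaR-M replicate 2. SEMA3G, a secreted semaphorin that binds NRP2, was at 5.04, 5.03 and 5.09 log2 CPM in parental cells, 4.16, 2.77 and 4.26 in TalaR-M cells and between 4.94 and 4.98 in TalaR-DF cells. Its change was -1.32 (SE 0.35, adjusted p = 0.0297) with replicate 2 and -0.85 without it (adjusted p = 2.75e-06). Over all alternatives of this comparison, most of which kept replicate 2, the adjusted p of SEMA3G ran from 2.03e-06 to 0.103. SEMA4G, a membrane semaphorin whose gene overlaps MRPL43 on the opposite strand by 16368 bases, was at 3.42, 3.32 and 3.35 in parental cells, 2.63, 1.14 and 2.53 in TalaR-M cells, and between 3.09 and 3.22 in TalaR-DF cells. It changed by -1.27 (SE 0.36, adjusted p = 0.0366) with replicate 2 and by -0.79 without it (adjusted p = 0.000107). The adjusted p of SEMA4G ran from 6.57e-05 to 0.114 over the same alternatives. Both calls were also lost when any 1 parental or TalaR-DF library was left out, at adjusted p of up to 0.0972 for SEMA3G and 0.114 for SEMA4G. The uncalled SEMA3A, SEMA3F, SEMA4C, SEMA4F and SEMA6B had log2 fold changes from -0.97 to 0.79 in the comparisons with parental cells. SEMA6B, the most abundant semaphorin per length, lay between 6.86 and 7.51 in all 9 libraries. SEMA5B and SEMA6D were at 0 throughout, and SEMA3D and SEMA4A were above 1 CPM in too few libraries to be tested.

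Of the neuropilins, coreceptors of the secreted semaphorins and of VEGF, NRP2 rose in TalaR-DF cells. It was at 5.71, 5.73 and 5.79 log2 CPM in parental cells, 6.92, 6.01 and 6.85 in TalaR-M cells and 6.83, 6.95 and 6.85 in TalaR-DF cells, so that every resistant library lay above every parental one. NRP2 rose by 1.13 in TalaR-DF cells (SE 0.23, adjusted p = 0.0106). In TalaR-M cells it was 0.85 higher (SE 0.23, adjusted p = 0.0315), short of 2-fold, and 1.14 higher without replicate 2, where it was called. NRP1, the receptor of SEMA3A, was at 7.27, 7.21 and 7.22 in parental cells, 6.68, 4.99 and 6.67 in TalaR-M cells, and 6.29, 6.37 and 6.37 in TalaR-DF cells. The change of NRP1 was -1.12 (SE 0.41, adjusted p = 0.0826) in TalaR-M cells, -0.56 without replicate 2, and -0.89 (SE 0.41, adjusted p = 0.192) in TalaR-DF cells, and it was called in none of these fits. Without TalaR-M replicate 2 the change of NRP1 in TalaR-DF cells had an SE of 0.05 (adjusted p = 4.57e-08) and was still short of 2-fold. Per kb of transcript, NRP1 stood at 26.7 CPM and NRP2 at 8.07 CPM in parental cells, and at 14.4 and 17.7 CPM in TalaR-DF cells.

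Plexins that were called were lower in resistant than in parental cells. PLXND1, the receptor of SEMA3E, was at 7.49, 7.51 and 7.51 log2 CPM in parental cells, 6.30, 6.03 and 6.30 in TalaR-M cells and 6.72, 6.58 and 6.43 in TalaR-DF cells. Groups did not overlap. PLXND1 fell by 1.29 in TalaR-M cells (SE 0.13, adjusted p = 0.000228), though it was not past 2-fold once values were corrected for length and GC content, and its change in TalaR-DF cells was -0.92 (SE 0.13, adjusted p = 0.00182). PLXNA4 (chromosome 7 from 132123340 to 132648688), a receptor of SEMA3A and SEMA6A, was at 1.37, 1.73 and 1.53 in parental cells and listed at 0 in all 6 resistant libraries. It was at least 2.91-fold lower in the TalaR-M group (adjusted p = 3.63e-05) and in the TalaR-DF group (adjusted p = 4.87e-05), on 37 to 45 reads in parental libraries. PLXNB1, the receptor of SEMA4D, was at 5.88, 5.93 and 5.94 in parental cells, 5.0, 5.39 and 5.43 in TalaR-M cells and 4.86, 5.22 and 4.57 in TalaR-DF cells. It fell by 1.03 in TalaR-DF cells (SE 0.20, adjusted p = 0.00763), short of 2-fold without TalaR-DF replicate 3, at -0.88, or after correction for length and GC content.

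PLXNA2, another receptor of SEMA6A, was at 1.08, 1.76 and 1.32 log2 CPM in parental cells, 1.28, 0.01 and 1.51 in TalaR-M cells and 0.14, 0.13 and 0.03 in TalaR-DF cells. TalaR-DF libraries lay below all parental ones, on 12 to 15 reads. PLXNA2 fell by 1.28 in TalaR-DF cells (SE 0.37, adjusted p = 0.0451), and this call held in only 2 of the 9 fits that left out 1 library, those without TalaR-M replicate 2 or 3, with an adjusted p of up to 0.161 in the others. Without TalaR-M replicate 2 it was called higher in TalaR-M than in TalaR-DF cells, at 1.29 in place of 0.83. PLXNB3 was at 5.39, 5.28 and 5.38 in parental cells, 4.44, 2.28 and 4.95 in TalaR-M cells and 4.31, 4.41 and 3.78 in TalaR-DF cells. Its change in TalaR-DF cells was -1.18, with an adjusted p of 0.243 (SE 0.60). PLXNB3 was called there in 3 alternative fits, among them the one without TalaR-M replicate 2. In TalaR-M cells PLXNB3 changed by -1.46 (adjusted p = 0.116), by -0.66 without replicate 2, and by -1.99 without replicate 3, where it was called. Reads of PLXNB3 may be shared with SRPK3, which overlaps it on the same strand. Per kb of transcript, PLXNA1 (50.4 CPM), PLXNB2 (33.1 CPM) and PLXND1 (26.2 CPM) led in parental cells. PLXNA1, PLXNA3, PLXNB2 and PLXNC1 were not called.

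**Figure D4:**
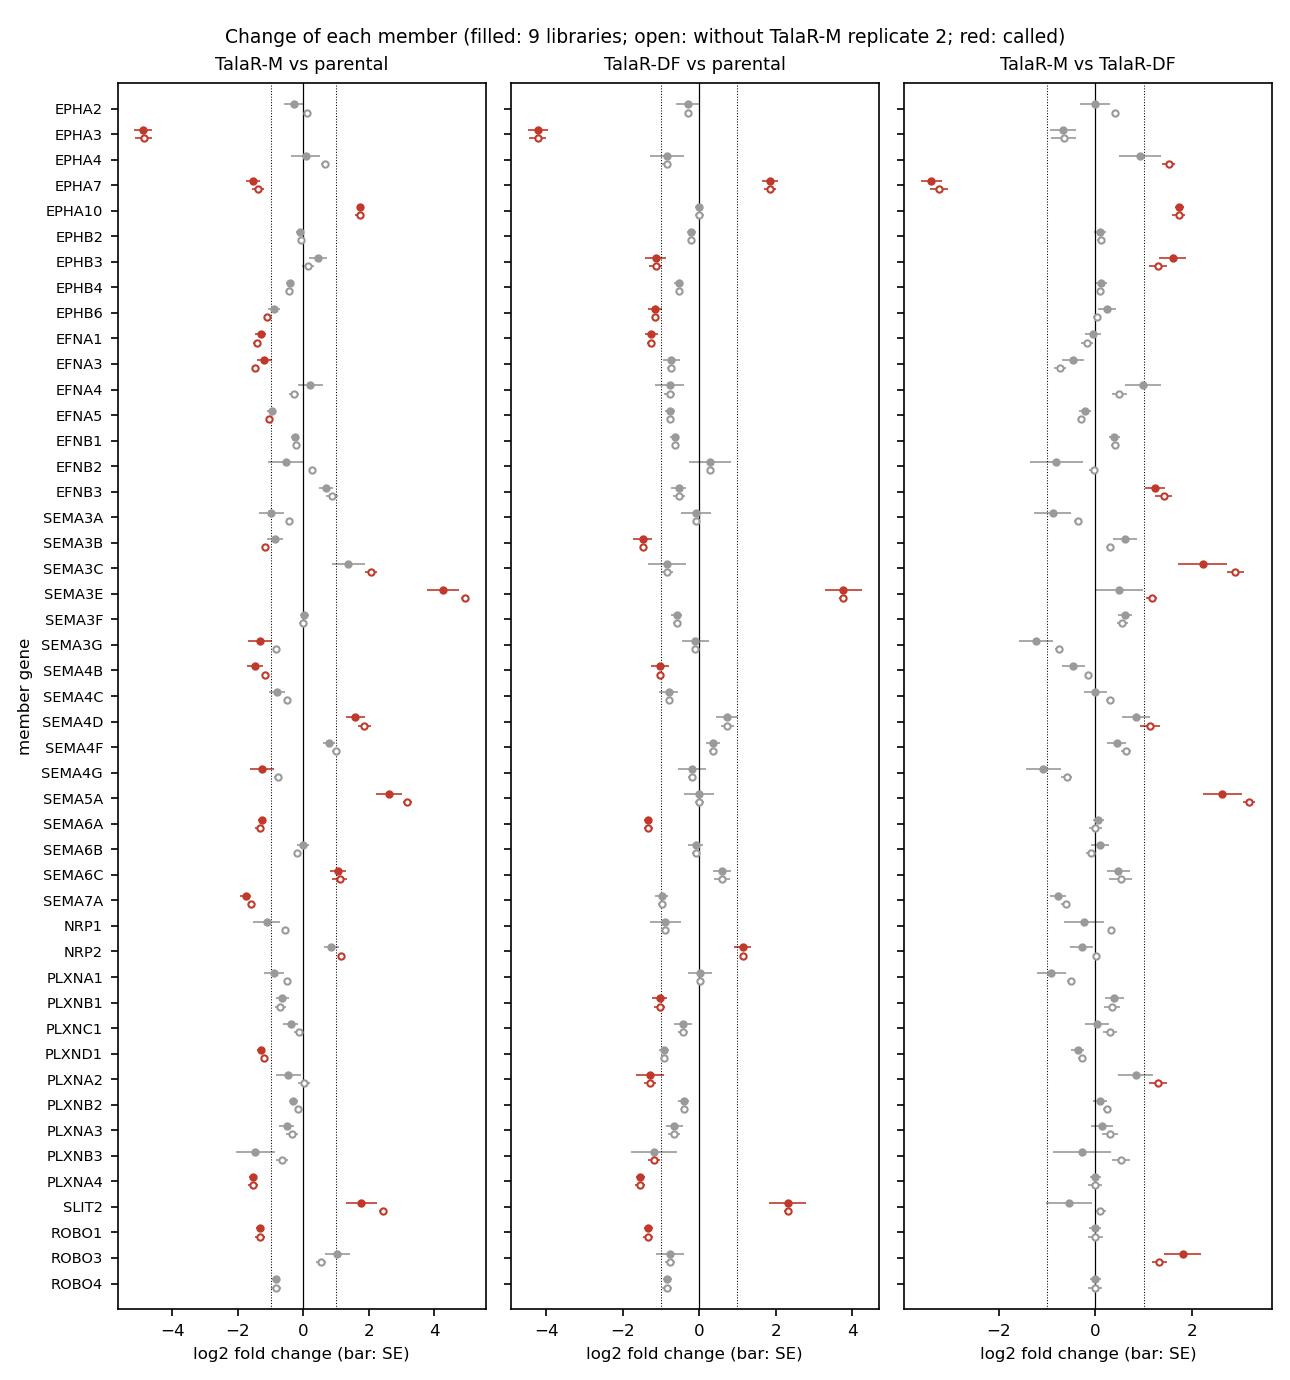
Log2 fold change (horizontal axis, bars give the SE) of the 47 tested members (rows) in the 3 comparisons, from all 9 libraries (filled) and without TalaR-M replicate 2 (open), in red where called and with dotted lines at 2-fold. EPHA3 lies lowest and SEMA3E highest against parental cells, and EPHA7 lies on opposite sides of 0 in TalaR-M and TalaR-DF cells.

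Among slits and robos, the ligand SLIT2 rose in both TalaR groups and the receptor ROBO1 fell. SLIT2 (chromosome 4 from 20251905 to 20620561) was at 2.50, 2.27 and 2.58 log2 CPM in parental cells, 4.92, 2.91 and 4.81 in TalaR-M cells and 4.73, 4.82 and 4.75 in TalaR-DF cells. All 6 resistant libraries lay above the parental ones, TalaR-M replicate 2 by the least. SLIT2 rose by 2.32 in TalaR-DF cells (SE 0.48, adjusted p = 0.0112), or 4.98-fold, with an adjusted p of 0.051 without parental replicate 2. Without TalaR-M replicate 2 the same rise of SLIT2 had an SE of 0.10 (adjusted p = 5.96e-09). In TalaR-M cells it rose by 1.76 (SE 0.48, adjusted p = 0.0309), and by 2.41 without replicate 2. This call was lost without any 1 of the other 8 libraries, at an adjusted p of up to 0.105. SLIT1 and SLIT3 were at 0 in all 9 libraries.

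ROBO1 (chromosome 3 from 78597239 to 79767998), the main slit receptor, was at 1.45, 1.45 and 1.08 log2 CPM in parental cells, on 27 to 39 reads, and listed at 0 in all 6 resistant libraries. It was at least 2.51-fold lower in TalaR-M (adjusted p = 0.000135) and in TalaR-DF cells (adjusted p = 0.000172). ROBO4, a robo of endothelial cells, was at 1.03, 0.73 and 0.74 in parental cells and also at 0 in all resistant libraries, a change of -0.83 in both comparisons that was short of 2-fold. The summed level of 5 endothelial markers moved with it, from 28.9 to 32.1 CPM in parental cells to between 5.9 and 10.3 in TalaR-M and between 2.9 and 3.2 in TalaR-DF cells. VWF was at 0 in all of them, and the part of these markers in the result was not tested. ROBO3, a divergent robo, was at 2.75, 2.58 and 2.83 in parental cells, 3.14, 4.73 and 3.41 in TalaR-M cells, and 1.87, 2.17 and 1.83 in TalaR-DF cells. ROBO3 was 1.80 higher in TalaR-M than in TalaR-DF cells (SE 0.38, adjusted p = 0.0184) and 1.32 higher without TalaR-M replicate 2, and this call was lost without any 1 of the TalaR-DF libraries, at an adjusted p of up to 0.0789. Compared with parental cells, the rise of ROBO3 in the TalaR-M group was 1.04 (SE 0.38, adjusted p = 0.0824), which was not called. This rise shrank to 0.55 once TalaR-M replicate 2, the highest library at 4.73, was dropped, and it was not called there either. Only 2 alternative fits called it, among them the one without TalaR-M replicate 1, at 1.35, which kept replicate 2. ROBO2 was at 0 throughout.

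Signalling partners of these families were taken as a list of 92 genes, of which 67 were tested. In TalaR-M against parental cells 16 were called (23.9%, against 13.3% of all genes), 6 higher (8.96%, against 5.53%) and 10 lower (14.9%, against 7.72%). The largest rises were those of CHL1, an adhesion molecule that works with NRP1 (3.52), FARP1 (2.69), NEO1, a receptor of netrins and repulsive guidance molecules (1.90), and RGMB, one of these molecules (1.75). CHL1 was at 0 in all parental and TalaR-DF libraries and at 4.10, 2.43 and 4.03 log2 CPM in TalaR-M cells, at least 11.5-fold higher, and it passed the filter only through that group. Without TalaR-M replicate 2 the values were 4.06 for CHL1, 3.20 for FARP1, 2.53 for NEO1 and 1.61 for RGMB, and NTN4, a netrin, was then called at 2.03. The largest falls were those of CXCR4, the receptor of CXCL12 (-3.05), FLRT2, a ligand of UNC5 receptors (-2.51), KDR, a VEGF receptor (-2.38), and SRGAP1, a GTPase-activating protein that binds ROBO1 (-1.97). This order depended on TalaR-M replicate 2: without it CXCR4 was at -2.97, FLRT2 at -2.43, VAV3, an exchange factor for small GTPases, at -1.94, KDR at -1.63 and SRGAP1 at -1.48. VAV3 and RHOD, called lower here and in TalaR-DF cells, were above 1 CPM in parental cells only. They passed the filter only through that group, and their falls are limited by the floor of 1 CPM. CXCR4 was at 3.13, 3.14 and 3.38 in parental cells and at most 0.50 in any resistant library. KDR was at 3.85, 3.82 and 3.99 in parental cells, 2.33, 0 and 2.17 in TalaR-M cells, and 0 in every TalaR-DF library, and it is 1 of the 5 endothelial markers above.

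In TalaR-DF against parental cells 15 partner genes were called (22.4%, against 9.73% of all genes), 3 higher (4.48%, against 2.25%) and 12 lower (17.9%, against 7.49%). FARP1 rose by 2.49, NEO1 by 1.71 and ABLIM1, an actin-binding protein, by 1.53. KDR (-3.88), CXCR4 (-3.08), NTNG2, a netrin-G (-2.38), and FLRT2 (-2.25) fell the most. VEGFA, a ligand of NRP1 and KDR, was at 7.17, 7.22 and 7.23 log2 CPM in parental cells and between 5.83 and 5.92 in TalaR-DF cells, a fall of 1.32 (adjusted p = 0.0308). Between TalaR-M and TalaR-DF cells 5 partner genes were called (7.46%), each higher in TalaR-M cells, a share close to the 6.93% of all genes. These were led by CHL1 (3.52), SDC1, a heparan sulphate proteoglycan (2.19), CXCL12 (1.91) and MICAL1, an oxidoreductase downstream of plexins (1.19). SDC1 was at 3.80, 3.66 and 3.56 in parental cells, 4.74, 4.82 and 4.61 in TalaR-M cells and 2.55, 2.41 and 2.64 in TalaR-DF cells, with no overlap between the groups. The medians of the tested partner genes were -0.29, -0.20 and 0.00 in the 3 comparisons. Without TalaR-M replicate 2 the counts were 16, 15 and 9 (13.9%, 11.4% and 8.36% of all genes). In that fit the calls of SDC1 against parental cells and of MICAL1 against TalaR-DF cells fell short of 2-fold.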

How the data were processed

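The 9 RNAseq libraries of untreated, maintained (TalaR-M) and withdrawn (TalaR-DF) PSN1 cells were used, 3 of each. From stranded poly(A) libraries the authors deposited log2 values for each gene, which their notes place on the hg38 build. The aligner, the counting method and the annotation are not given in the sources used here. The unit was read from the values: log2 CPM with a small prior count, in which every value under 0 was set to 0. Genes above 1 CPM summed to 1113572 CPM in TalaR-M replicate 2 and to 897489 CPM in TalaR-M replicate 3. Scaling to depth alone cannot give the first of these sums, so a further factor between libraries was applied, by a method not given. Column names (maintain, withdraw) were matched to TalaR-M and TalaR-DF by meaning.

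The groups were compared by limma (3.58.1, under R 4.3.3), in a linear model of the 3 groups with a mean-variance trend, over 12471 genes above 1 CPM in at least 3 libraries. No pseudocount was added. With 3 against 3 libraries an exact permutation test cannot give a p under 0.1 and was not used. The fit was tested on simulated data with libraries of equal depth, no aberrant library, and changes only in genes well above the floor. That test does not bear on changes at the floor or on the effect of TalaR-M replicate 2. Reads recovered from the steps of the values were used for depth only, since values at 0 hide up to 1 CPM.

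Members, lists and tests were chosen with earlier results of these data known. Members called with all 9 libraries or without TalaR-M replicate 2 were described by role, the others by range or where they lead a role or pair with a called member, and partner genes by the 4 largest called rises and falls, with VEGFA, VAV3 and NTN4 added after their values were seen. Replicate numbers did not pair the samples: deviations of samples with the same number correlated at between -0.42 and 0.22. The alternatives were other pseudocounts, filters, thresholds and scaling, no trend, a replicate block, only the 2 groups compared, removal of a trend on length and GC content, and each library left out in turn. Array weights were fitted gene by gene after the first method did not converge, a choice made after seeing the data. Gene positions, lengths and overlaps came from GENCODE 44 and promoters from RefSeq. Plots were made by matplotlib (3.10.9) under Python (3.11.15).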

Additional observations from a re-analysis of the deposited data

How the results depend on the processing

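Over 19 alternatives for 63 values of the 30 named members, and 18 for the 27 values of members left out by a minimum of 5 CPM, no value that was called reversed its direction. Of the 40 calls of members, 9 were kept under every alternative, 29 in every fit that left out 1 library, and 2 were lost without TalaR-M replicate 2, while 10 were gained without it. A pseudocount of 8 CPM left 6 members called in TalaR-M against parental cells (5.7% of all genes), 6 in TalaR-DF against parental cells (3.42%) and 1 in TalaR-M against TalaR-DF cells (2.18%), since a large pseudocount shrinks the change of genes at low level. Without a fold threshold 28 members were called in TalaR-M against parental cells (23.6% of all genes). In TalaR-M against TalaR-DF cells the 7 members became 3 of 36 with a minimum of 5 CPM (5.73% of all genes), 11 with array weights (8.32%) and 12 with the length and GC trend removed (8.5%), and the 5 partner genes became 8 after rescaling by the median ratio (7.95%); the cause was not tested.

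Leaving out each library in turn gave 14 to 21 members in TalaR-M against parental cells (10.4 to 16.4% of all genes). There were 11 to 16 in TalaR-DF against parental cells (7.88 to 11.4%) and 5 to 11 in TalaR-M against TalaR-DF cells (4.63 to 8.36%). The medians of the members were -0.72 to -0.35, -0.70 to -0.59 and 0.00 to 0.23. For partner genes the counts were 13 to 17, 9 to 15 and 4 to 9, beside the same shares of all genes. The 9 in TalaR-DF against parental cells came without parental replicate 1 or 3, and the 11 members and 9 partner genes in TalaR-M against TalaR-DF cells came without TalaR-M replicate 2. With the replicate number as a block, 18, 13 and 6 members and 16, 14 and 4 partner genes were called in the same order of comparisons. The shares of all genes were then 12.4%, 9.08% and 6.01%, though the replicate numbers did not pair the samples. Depth limits what can be said of members near 1 CPM, such as ROBO1, ROBO4, PLXNA4 and SEMA6A, which rest on 21 to 45 reads in parental libraries.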

Other observations

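Members that lie in the same region of a chromosome did not always move together. On chromosome 7, SEMA3C (80742538 to 80922359), SEMA3E (83363238 to 83649139), SEMA3A (83955777 to 84492724) and SEMA3D (84995553 to 85187056) lie in this order. Other genes between the members were not examined. Without TalaR-M replicate 2, SEMA3C and SEMA3E in TalaR-M cells exceeded parental cells by 2.05 and 4.93 on the log2 scale, while SEMA3A, the next member, changed by -0.45. In TalaR-DF cells SEMA3E rose by 3.77, with SEMA3C at -0.84 and SEMA3A at -0.09. On chromosome 1, EFNA4, EFNA3 and EFNA1 lie between 155063737 and 155134899, and in TalaR-M cells EFNA3 and EFNA1 fell by 1.20 and 1.31 where EFNA4 changed by 0.22 (adjusted p = 0.69). Without TalaR-M replicate 2 EFNA4 changed by -0.27, the same direction as EFNA3 (-1.46) and EFNA1 (-1.42), and was not called. In TalaR-DF cells EFNA4 (-0.77, adjusted p = 0.227), EFNA3 (-0.73, adjusted p = 0.0591) and EFNA1 (-1.25) also went the same way. On chromosome 3, PLXNB1 (from 48403854), SEMA3F (from 50155045), SEMA3B (from 50267558) and SEMA3G (from 52433035) share a stretch in which PLXNB1 and SEMA3B fell in TalaR-DF cells, by 1.03 and 1.48, while SEMA3F changed by -0.58 (adjusted p = 0.0229) and SEMA3G by -0.10 (adjusted p = 0.911). On chromosome 11, ROBO3 and ROBO4 are neighbours on opposite strands, and ROBO4 was at 0 in all 6 resistant libraries. In TalaR-DF cells both went the same way, with ROBO3 at -0.76 (adjusted p = 0.227) and ROBO4 at -0.83. In TalaR-M cells ROBO3 changed by 1.04 (adjusted p = 0.0824), or 0.55 without TalaR-M replicate 2, where ROBO4 changed by -0.83.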
